A study of Mus musculus with 9 samples.

Results

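The genes described here encode the proteins of the mitochondrial ribosome. They are the 77 genes, of 13499 in the authors' table, whose name starts with Mrpl or Mrps and a digit; 1 further name, that of the pseudogene Mrpl23-ps1, was not counted among them. RNA was sequenced from C57BL/6 mouse embryonic stem (ES) cells, which can form all tissues of the embryo. The cells grew with LIF on gelatine, without a feeder layer named in the labels, and a cytometer sorted them by how brightly they carried GFP-Myc or EYFP. Which of the reporters each sample carried is not given in the sources used here, and neither is the number of cell clones. The populations are Low, Medium and High in Myc, with 3 libraries each that the labels call biological replicates. Values, called signal below, are read counts that the authors normalised to a scale near CPM (a gene's reads per fixed number of reads in the library).

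The mitochondrial ribosome, or mitoribosome, translates the few messenger RNAs of the mitochondrial genome, all of which encode subunits of the oxidative phosphorylation complexes. Its ribosomal RNAs are made inside the mitochondrion, whereas its proteins are encoded in the nucleus, made in the cytoplasm and imported. Some of these proteins have counterparts in bacteria and others exist only in mitochondria. Myc is a transcription factor that binds DNA together with its partner Max at the E-box, CACGTG, and is known for its part in growth and in mitochondrial gene expression.

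By their unified names, 50 of the 77 genes encode proteins of the large subunit and 26 of the small subunit. Mrps18a and Mrps30 carry small-subunit names but encode large-subunit proteins (mL66 and mL65), and they are counted there. Mrps36 is in neither count, since its product belongs to the alpha-ketoglutarate dehydrogenase complex. Under these names 46 of the encoded proteins count as counterparts of bacterial ones and 30 as specific to mitochondria.

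The libraries held 11114936 to 16755566 reads recovered from the table, and all 77 genes were above 0 in all 9 libraries. The fewest reads behind a single value were 148. Counting error was not estimated, and for the members with the fewest reads it may not be small beside small fold changes. Mean signal over the 9 libraries ran from 17.3 to 184, with a median of 54.5. Myc RNA was 26.3, 27.6 and 24.2 in Low, 70.0, 65.5 and 65.8 in Medium and 112, 101 and 106 in High, in the order of replicates 1 to 3. It followed the label in every library, which checks the sort and is not a finding.

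All 10 pluripotency markers were measured, with a summed signal of 4564 to 6052 in Low, 5304 to 5901 in Medium and 5579 to 6271 in High; 5 were higher in High than in Low and 0 lower. Markers of other cell types differed between the populations as well. The 7 trophoblast markers measured of 10 summed to 271 to 302 in Low, 172 to 181 in Medium and 115 to 123 in High, and 6 of them were lower in High than in Low. These are genes of the placental lineage, and the others listed mark cells that ES cultures can also hold. The 5 primitive endoderm markers measured of 10 summed to 251 to 260 in Low, 405 to 421 in Medium and 503 to 521 in High, with 4 higher and 1 lower in High. The 8 fibroblast markers measured of 10 summed to 106 to 116 in Low, 186 to 217 in Medium and 216 to 257 in High, with 2 higher. The 5 primed epiblast and mesoderm markers measured of 7 summed to 611 to 743 in Low, 764 to 864 in Medium and 737 to 832 in High, with 3 lower. Every measured marker was above 0 in at least 1 library. Cdx2, Elf5, Hand1, Foxa2, Gata4, Gata6, Pdgfra, Sox17, Mixl1, T, Lum and Pdgfrb had no value from the authors under these names. The part of these shifts in the values below was not tested, and in bulk RNA a different mix of cells and a different RNA content per cell cannot be told apart.

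Per kilobase of the principal annotated transcript, the mean signal of the 76 members with an annotation ran from 7.73 to 147, with a median of 41.95. Mrpl42 (mL42) had the highest signal per kilobase, 147, followed by Mrps18b (mS40) at 124 and Mrpl12 at 111. Mrpl12 (bL12) forms the stalk that recruits translation factors. Mrpl32 (bL32) was lowest at 7.73 per kilobase, with Mrpl48 (mL48) at 9.09 and Mrps26 (mS26) at 9.62 next. The choice of transcript enters each of these values.

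A RefSeq promoter, from 250 bases before to 50 after a start site on GRCm38.p6, was given for 68 of the 77 genes. The E-box letters CACGTG, which read the same on both strands, lay in 5 of these 68 promoters (7.35%), against 8.09% of all 27025 genes with a promoter and 11.9% of the 9765 of them in the table. The 60-base windows around them are shown because Myc binds this motif. The E-box is in capitals, the strand is that of the gene, and Mrpl2, which has several overlapping entries, is shown once.
Mrpl2, chr17:46646063-46646122, plus strand: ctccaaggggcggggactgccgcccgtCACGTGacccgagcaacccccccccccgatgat
Mrpl20, chr4:155802818-155802877, plus strand: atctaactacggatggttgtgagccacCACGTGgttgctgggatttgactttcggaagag
Mrpl36, chr13:73330939-73330998, plus strand: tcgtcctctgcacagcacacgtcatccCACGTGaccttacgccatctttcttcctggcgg
Mrpl37, chr4:107066996-107067055, minus strand: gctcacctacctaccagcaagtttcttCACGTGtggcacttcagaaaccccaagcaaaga
Mrps18c, chr5:100798569-100798628, plus strand: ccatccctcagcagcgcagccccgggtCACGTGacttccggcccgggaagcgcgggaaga
The motif began at position -33 from the start site in Mrpl20, -43 in Mrpl36, -162 in Mrpl37 and -163 in Mrps18c. In Mrps18c the letters of an ETS motif, on the other strand, follow the E-box directly.

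Other motifs were searched on both strands in the same windows, as descriptions of the letters only. The ETS letters CCGGAAGT lay in 12 of the 68 member promoters (17.6%), against 4.31% over all genes and 9.02% over genes in the table. The YY1 letters AAGATGGCG lay in 8 (11.8%), against 1.64% and 3.56%. ETS factors of the GABP family and NRF1 are known regulators of nuclear genes for mitochondrial proteins. GCATGCGC, the core of the NRF1 motif, lay in 8 (11.8%), against 3.05% and 6.2%. The longer NRF1 palindrome, which contains that core, lay in 3 (4.41%), against 1.07% and 2.4%; these were Mrpl9, Mrpl32 and Mrpl39. CCAAT lay in 27 (39.7%), against 41.1% and 43.6%.

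High against Low asks what differs between the ends of the Myc range. Mitoribosomal protein genes moved little: Mrps31 was higher in High, Mrpl23 was lower, and the other 75 did not pass the test. This was 2.6% of the members, beside 28.4% of all 13499 genes (limma with Benjamini-Hochberg adjustment over all genes, adjusted p under 0.05; 1866 higher and 1966 lower). An unadjusted p under 0.05 was reached by 4 members. A member that did not pass may still differ. In simulated data, 10 of 62 genes with a 1.5-fold change were recovered. Far fewer genes were changed there than the 3832 called here, which makes the adjusted threshold stricter. That share is therefore not the power of the test reported here, which was not measured. By direction, 13.8% of all genes were higher and 14.6% lower. edgeR on the recovered reads called 2 members, beside 27.2% of all genes, and DESeq2 called 3, beside 28.7%. With the replicate number as a block, limma called 5 members, beside 38.8% of all genes: Mrps31, Mrpl19, Mrpl36 and Mrpl50 as higher and Mrpl23 as lower.

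The members' log2 fold changes, High over Low, ran from -1.2 to 0.45 with quartiles at -0.09 and 0.05. Their median was -0.02, beside -0.00 over all genes, and 37 lay above 0 and 40 below. The median size of a log2 fold change, signs aside, was 0.084 among members and 0.248 over all genes. The standard errors were alike, with medians of 0.153 and 0.14. For 65 of the 77 members (84.4%) the 95% interval of the fold change lay within 1.5-fold in either direction, against 50.4% of all genes. These intervals use 1 estimate of spread for the populations, although the members' median log2 SD was 0.314 in Low, 0.133 in Medium and 0.126 in High. With only the 2 populations compared, 58 members (75.3%) lay within 1.5-fold, against 47.6% of all genes. Without Low replicate 3 these were 51 (66.2%) against 42.3%, and with the replicate block 73 (94.8%) against 57.7%.

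**Figure D1:**
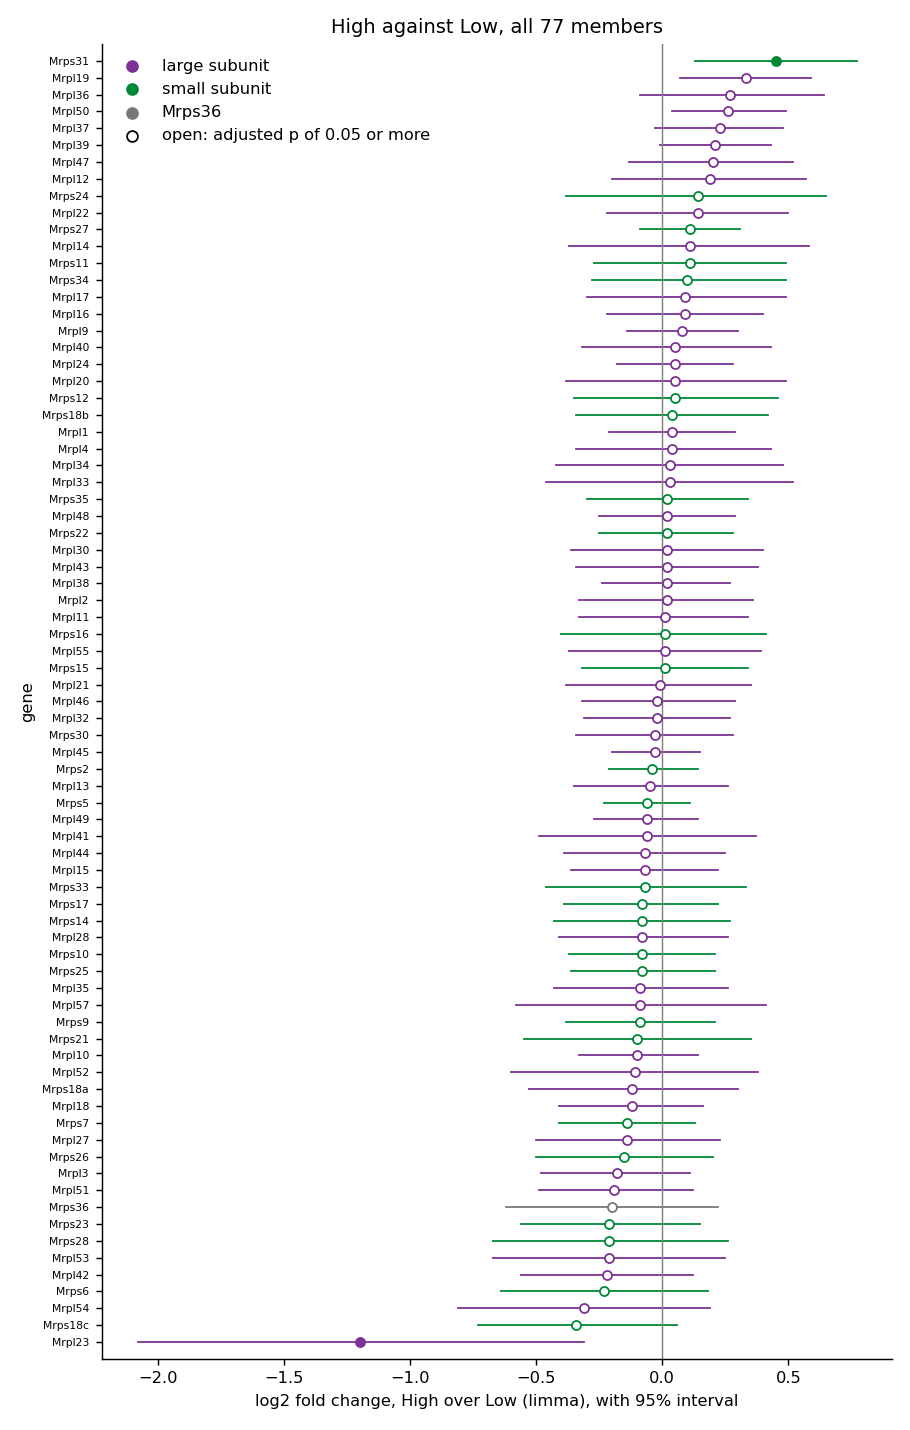
Log2 fold change of each of the 77 genes, High over Low, from limma, with its 95% interval; filled points passed the adjusted threshold. Most points lie close to 0, with Mrps31 (0.45) at the top and Mrpl23 (-1.2) at the bottom, and large and small subunit genes are mixed along the axis.

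By subunit, 0 of 50 large-subunit genes rose and 1 fell, with a median log2 fold change of 0.01. Of 26 small-subunit genes 1 rose and 0 fell, with a median of -0.06. Among genes with bacterial counterparts the median was 0.01 over 46 members, and among mitochondria-specific ones -0.03 over 30. The difference between these classes was not tested.

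In 3 members the High libraries all lay above the Low libraries (Mrps31, Mrpl19 and Mrpl39), and in 0 members all below. Over all genes the High libraries lay above in 20.2% and below in 21.4%. Mrpl23, although it passed the test, overlapped between the populations.

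Mrps31 encodes mS31, a mitochondria-specific protein of the small subunit. Its signal was 46.8, 56.5 and 59.1 in High, against 31.2, 43.7 and 44.0 in Low. The Medium libraries gave 43.9, 48.3 and 43.7, at the top of the Low range or above it. The mean was 54.2 ± 6.5 in High and 39.7 ± 7.29 in Low (SD, n = 3 each), a log2 fold change of 0.45 ± 0.142 (SE; limma adjusted p = 0.0393). Leaving out Low replicate 3, any Medium library, or High replicate 2 or 3 lost the call, with limma adjusted p from 0.0508 to 0.13. It passed with the replicate block (0.0066) and after correction for transcript length (0.00583). The promoter from 100 bases before to 20 after its start is shown because this is the member that rose; capitals mark CCAAT read on the other strand, and no E-box letters lie in its whole RefSeq window.
Mrps31, chr8:22411240-22411359, plus strand: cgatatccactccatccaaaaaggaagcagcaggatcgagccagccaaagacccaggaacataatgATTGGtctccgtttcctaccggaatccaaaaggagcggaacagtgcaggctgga

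Mrpl23 encodes uL23, a large-subunit protein that in bacteria lies at the exit of the peptide tunnel. Its signal was 10.6, 14.6 and 16.9 in High, against 15.5, 63.2 and 35.9 in Low. In Medium it was 14.7, 13.3 and 12.1. Low replicates 2 and 3 stood far above the other 7 libraries, while Low replicate 1 lay inside the High range. The mean was 14.0 ± 3.2 in High and 38.2 ± 23.9 in Low (SD, n = 3 each), with a log2 fold change of -1.2 ± 0.396 (SE; limma adjusted p = 0.0475). Without Low replicate 2 the log2 fold change was -0.74 and the call was lost (limma adjusted p = 0.114). Of the 9 ways to leave out 1 library, only the one without Low replicate 1 kept the call, at 0.000383.

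The pseudogene Mrpl23-ps1 resembles Mrpl23, so the authors' counting may have split reads between them. It had 25.3, 23.9 and 22.7 in High, against 25.8, 12.2 and 19.7 in Low. Among the Low libraries its order was the reverse of that of Mrpl23. The pseudogene did not pass the test (log2 fold change of 0.36, limma adjusted p = 0.262). The part of read sharing in the values of Mrpl23 was not tested, and they are uncertain to that extent. The imprinted RNA H19, whose gene is a neighbour of Mrpl23 on chromosome 7, had 50.5, 45.3 and 52.0 in High and 324, 295 and 289 in Low, with no such gap between Low replicates. The Mrpl23 promoter by RefSeq is printed beside that of Mrps31 as the member that fell. Its RefSeq window holds neither E-box nor CCAAT letters. In the GENCODE annotation Mrpl23 starts at 142532686, before that window, and the bases upstream of that start were not searched.
Mrpl23, chr7:142532932-142533051, plus strand: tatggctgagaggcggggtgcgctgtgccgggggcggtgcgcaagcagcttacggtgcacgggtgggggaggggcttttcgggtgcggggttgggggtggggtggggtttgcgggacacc

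Mrpl19, Mrpl36, Mrpl50 and Mrpl37 had the next highest log2 fold changes and did not pass. Mrpl19 (bL19) had 77.2, 83.0 and 84.0 in High, against 56.1, 71.1 and 67.0 in Low. The populations did not overlap, and the log2 fold change of 0.33 ± 0.117 (SE) had limma adjusted p = 0.0583; it passed in DESeq2 (0.0429) and without Low replicate 2 (limma, 0.0411). Mrpl50 (mL50) had 63.0, 71.9 and 74.3 in High, against 52.1, 64.9 and 57.2 in Low. Here High replicate 1 lay below Low replicate 2 (log2 fold change of 0.26 ± 0.102, limma adjusted p = 0.0812; 0.0332 without Low replicate 2).

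Mrpl36 (bL36), whose promoter window with an E-box is printed above, had 41.1, 47.4 and 44.1 in High, against 28.9, 45.5 and 36.5 in Low. Its log2 fold change was 0.27 ± 0.162 (SE; limma adjusted p = 0.237). Mrpl37 (mL37), also with an E-box, had 91.0, 94.7 and 108 in High, against 72.2, 93.5 and 85.7 in Low (0.23 ± 0.116, limma adjusted p = 0.175). In both genes Low replicate 2 lay within the High range. After the transcript length correction both passed, at limma adjusted p = 0.00705 for Mrpl36 and 0.0428 for Mrpl37. The other 3 genes with an E-box window had log2 fold changes of 0.02 (Mrpl2), 0.05 (Mrpl20) and -0.34 (Mrps18c), none past the threshold without that correction. With it Mrps18c passed as lower, while Mrpl2 and Mrpl20 did not pass (limma adjusted p = 0.408 and 0.342).

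**Figure D2:**
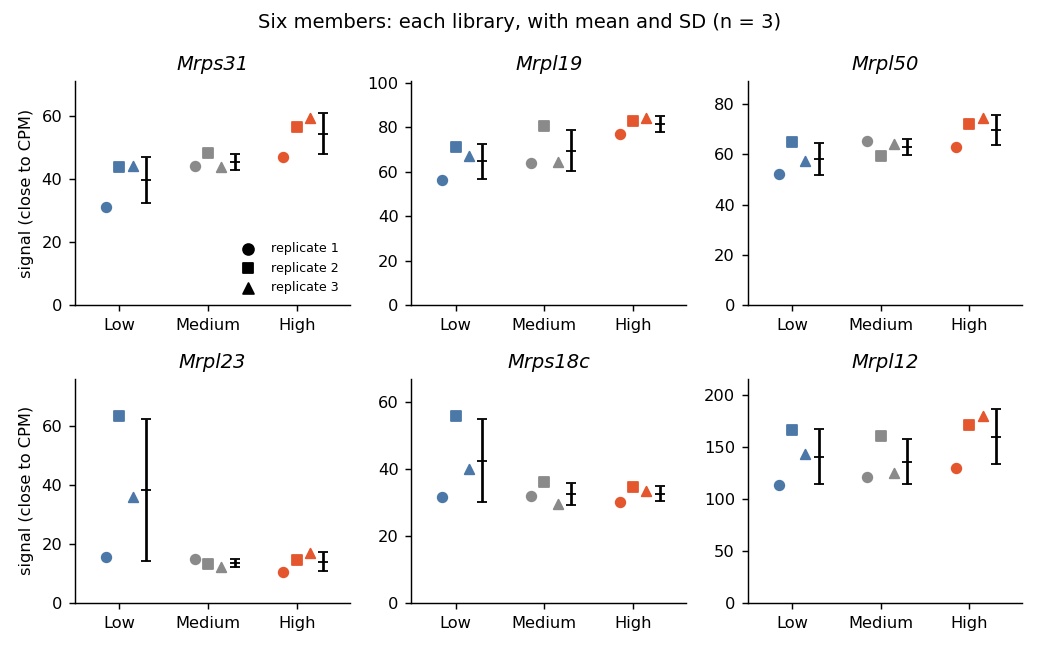
Signal of 6 genes in each library (symbols mark replicate numbers), with the mean and SD of each population beside them; axes start at 0. High lies above Low in all libraries for Mrps31 and Mrpl19, Low replicate 2 is the highest library for Mrpl23 (63.2) and Mrps18c (55.8), and Mrpl12 overlaps throughout.

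After Mrpl23, the lowest log2 fold changes were those of Mrps18c, Mrpl54, Mrps6 and Mrpl42, none past the threshold. Mrps18c (bS18) had 30.1, 34.5 and 33.3 in High, against 31.7, 55.8 and 40.1 in Low. All of its High values lay below the middle Low library (log2 fold change of -0.34 ± 0.176 SE, limma adjusted p = 0.184). Mrpl54 (mL54) had 25.3, 31.8 and 38.0 in High, against 27.9, 51.0 and 41.8 in Low (log2 fold change of -0.31, limma adjusted p = 0.326). Mrps6 (bS6) and Mrpl42 (mL42) had log2 fold changes of -0.23 and -0.22. In all 4 genes the highest of the 9 libraries was Low replicate 2.

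Mrps18a, Mrps18b and Mrps18c are related in sequence to the same bacterial protein, S18. By the unified names, Mrps18c (bS18) counts as its counterpart, while Mrps18a (mL66) and Mrps18b (mS40) hold other places in the ribosome and are counted among the mitochondria-specific proteins. Mrps18a had 32.0, 41.0 and 37.1 in High, against 29.8, 52.8 and 39.9 in Low (log2 fold change of -0.12). Mrps18b had 127, 145 and 143 in High, against 99.1, 171 and 141 in Low (0.04). Neither passed, and with Mrps18c all 3 paralogs shared the order of the Low libraries, replicate 2 above 3 above 1. Mrpl12, whose human protein also binds the mitochondrial RNA polymerase, had 130, 171 and 180 in High, against 114, 167 and 143 in Low (log2 fold change of 0.19, limma adjusted p = 0.453).

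High and Medium differ less in Myc, and 0 of 77 members passed, beside 0.407% of all genes (limma; 11 higher and 44 lower). The count of members at an unadjusted p under 0.05 was also 0, as were those by edgeR (0.467% of all genes) and DESeq2 (1.93%). The members' log2 fold changes, High over Medium, were mostly small and positive: 73 of 77 lay above 0, with a median of 0.12 (0.01 over all genes) and a range of -0.03 to 0.32. Mrps24 (uS3), Mrpl33 (bL33) and Mrpl36 were at the top, at 0.32, 0.31 and 0.28. Mrpl3 (uL3), Mrps23 (mS23) and Mrpl49 (mL49) were at the bottom, at -0.03, -0.01 and -0.01. The shift was largest between libraries of number 3, where 77 of 77 members were higher in High (median log2 difference 0.25). Between those of number 1, 53 were higher (0.06), and between those of number 2, 54 were (0.05). The direction was not particular to the members. Of 77 nuclear oxidative phosphorylation genes 75 lay above 0 (median 0.108), as did 84 of 86 cytoplasmic ribosomal protein genes (median 0.087).

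In 5 members all High libraries lay above all Medium libraries (Mrpl16, Mrpl22, Mrpl32, Mrpl48 and Mrps2) and in 0 below, against 9.34% and 10.8% of all genes. Mrpl48 had 39.5, 42.1 and 41.2 in High and 32.5, 37.2 and 35.2 in Medium. Mrps2 (uS2) had 99.2, 102 and 104 in High and 95.7, 96.1 and 94.0 in Medium. Both genes were separated by small steps only. Mrps24 had 61.5, 85.1 and 92.9 in High and 51.4, 82.2 and 58.3 in Medium, where High replicate 1 lay below Medium replicate 2.

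Medium against Low gave 0 of 77 members past the threshold, beside 12.0% of all genes (limma; 829 higher and 792 lower). An unadjusted p under 0.05 was reached by 2 members, and edgeR and DESeq2 on the recovered reads each called 1, Mrpl23, beside 11.0% and 14.9% of all genes. The direction was the opposite of that between High and Medium: 69 members lay below 0, with a median log2 fold change, Medium over Low, of -0.14 (-0.01 over all genes). These comparisons share the Medium libraries. The size of that median rested on Low replicates 1 and 2: it was -0.01 without Low replicate 2, with 33 members above 0 and 44 below, and -0.31 without Low replicate 1. It was -0.05 after the transcript length correction, and 0.03 with that correction fitted without Low replicate 2. Mrps31, Mrpl50 and Mrpl19 were highest, at 0.20, 0.12 and 0.10, and Mrpl23, Mrps6 and Mrpl54 lowest, at -1.24, -0.49 and -0.41. With all libraries and no length correction, 70 of 77 nuclear oxidative phosphorylation genes lay below 0 too (median -0.191). So did 83 of 86 cytoplasmic ribosomal protein genes (median -0.288).

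Mrpl23 had limma adjusted p = 0.0692 in Medium against Low and was the 1 member with all Medium libraries below all Low libraries; 0 members lay above. Over all genes the Medium libraries lay below in 15.1% and above in 14.5%. Mrps6 had 13.2, 18.2 and 13.1 in Medium, against 16.7, 25.5 and 21.9 in Low, with Medium replicate 2 inside the Low range (limma adjusted p = 0.105). Without Low replicate 1, 31 members were lower in Medium and 0 higher, beside 38.0% of all genes called; without Low replicate 2 the count was 0, beside 6.83% (limma).

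**Figure D3:**
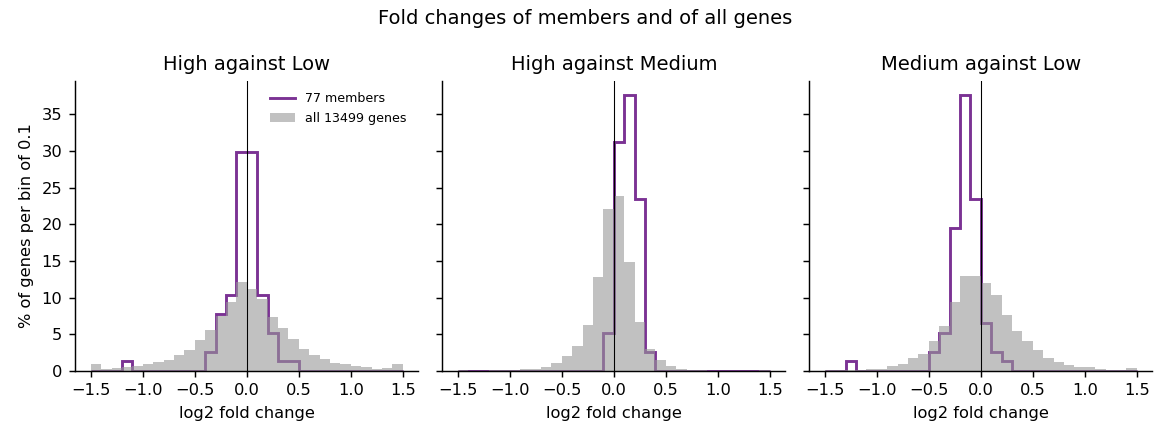
Share of genes per bin of 0.1 in log2 fold change, for the 77 members (line) and all 13499 genes (grey), in the 3 comparisons; values past the axis are counted in the end bins. Members sit closely around 0 for High against Low, to the right for High against Medium (median 0.12) and to the left for Medium against Low (median -0.14).

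The members varied most between libraries of the same population, and they varied together. Their summed signal was 3938, 5835 and 5070 in Low, 4233, 4903 and 4258 in Medium and 4403, 5068 and 5126 in High. Low replicate 1 was the lowest and Low replicate 2 the highest of all 9 libraries. The mean was 4948 ± 955 in Low, 4465 ± 380 in Medium and 4866 ± 402 in High (SD, n = 3 each), so the spread within Low exceeded the distance between any population means. The highest Low library exceeded the lowest 1.48-fold, compared with 1.16-fold in both Medium and High.

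As a median over members, the log2 distance from each gene's mean of 9 libraries was -0.25, 0.32 and 0.10 in Low. It was -0.16, 0.06 and -0.15 in Medium and -0.10, 0.10 and 0.10 in High. The same median over all genes stayed between -0.00 and 0.02, where normalising each library and centring each gene tend to hold it. Large-subunit genes (-0.28, 0.32 and 0.11 in Low) and small-subunit genes (-0.24, 0.34 and 0.09) shifted alike.

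**Figure D4:**
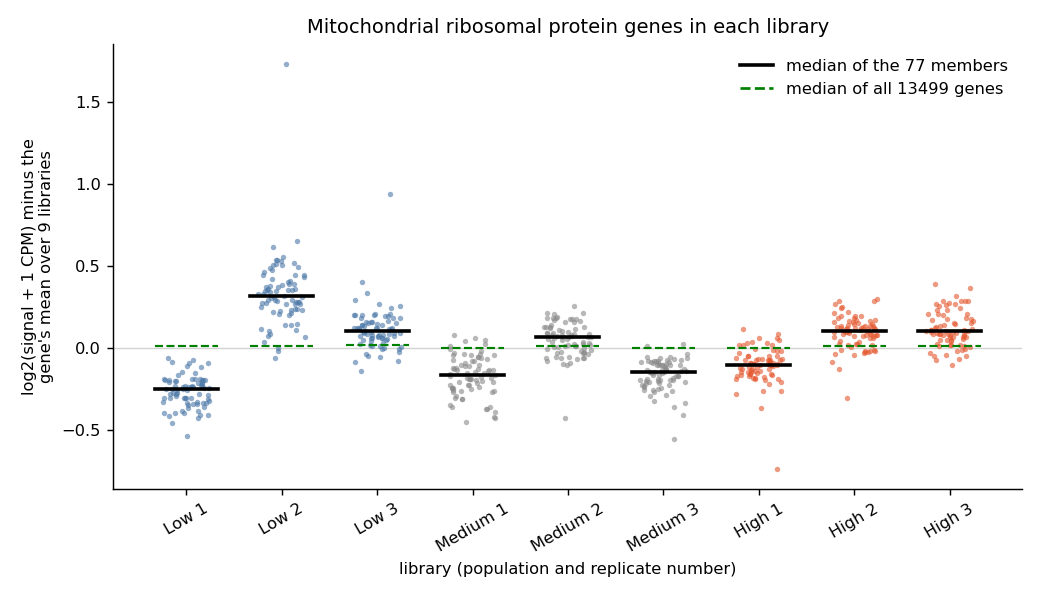
Each point is a member's log2(signal + 1 CPM) minus its mean over the 9 libraries; black bars are the median of the 77 members and green dashes that of all genes. The members shift as a block from library to library, from -0.25 in Low replicate 1 to 0.32 in Low replicate 2. The median of all genes stays near 0, where normalising and centring tend to hold it.

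The shift was shared gene by gene. In Low, 74 of the 77 members (96.1%) had replicate 2 highest and replicate 1 lowest, an order found in 31.6% of all genes. Mrpl39, Mrps5 and Mrps31 were the exceptions, with replicate 3 highest and replicate 1 still lowest. Replicate 1 was lowest for 77 of 77 members in Low, 35 in Medium and 73 in High, against 42.5%, 35.3% and 40.1% of all genes. The median SD within a population, on the log2 scale, was 0.314 in Low, 0.133 in Medium and 0.126 in High for members, against 0.194, 0.132 and 0.12 over all genes.

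Each member's values over the 9 libraries were set beside the mean of the other members. Pearson's r had a median of 0.93, reached 0.99 for Mrpl57 (mL63) and exceeded 0.9 for 46 members. Mrpl50 (0.40), Mrps31 (0.52), Mrpl19 and Mrpl39 (0.57 each) were least like the rest. These correlations describe genes measured in the same libraries, with the depth and scaling of each library in common. By RefSeq, Mrps11 (uS11) and Mrpl46 (mL46) are transcribed in opposite directions from starts 42 bases apart, and the pair had r = 0.80 over the 9 libraries. In the GENCODE annotation Mrpl46 reaches 78783531, past both of these starts, and its exons overlap those of Mrps11. The use of strand in counting is not given, so reads of these genes may have been mixed. The stretch from 20 bases inside one RefSeq start to 20 inside the other is shown because both of these starts lie in it.
Mrps11 and Mrpl46, chr7:78783070-78783150, plus strand: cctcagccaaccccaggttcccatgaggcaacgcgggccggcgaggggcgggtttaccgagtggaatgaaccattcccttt

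Because the Low libraries differed, the direction of the High and Low difference depended on which were set beside each other. Between libraries of number 1, 67 of 77 members were higher in High than in Low, with a median log2 difference of 0.17. Between those of number 2 only 9 were higher (median -0.22), and between those of number 3, 36 were (-0.02). Without Low replicate 1, 13 members passed for High against Low, 1 higher and 12 lower, beside 43.3% of all genes. The 11 calls that appeared were all lower in High; by adjusted p they were led by Mrps36, Mrpl51, Mrps18c, Mrpl3, Mrpl42 and Mrps26. The members' median log2 fold change was then -0.17. Without Low replicate 2, 3 members passed as higher (Mrps31, Mrpl19 and Mrpl50) and 0 as lower, beside 22.6% of all genes, and the median was 0.11. Without Low replicate 3 the count was 0, beside 17.4%.

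A correction for transcript length made the spread of the Low libraries smaller but did not remove it. The longest annotated transcript had a median of 1806.5 nt among members and 3288 nt over all genes. After a smooth correction for length in each library, the members' medians in Low were -0.21, 0.16 and 0.03, in place of -0.25, 0.32 and 0.10. With that correction 8 members passed for High against Low, 6 higher (Mrpl12, Mrpl36, Mrpl37, Mrpl39, Mrpl50 and Mrps31) and 2 lower (Mrpl23 and Mrps18c), beside 37.9% of all genes. The part of transcript length, RNA quality or handling in the spread of the Low libraries was not tested.

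Other nuclear genes for ribosomes and respiration followed the same order. In Low, replicate 2 was highest and replicate 1 lowest for 86 of 86 cytoplasmic ribosomal protein genes and for 75 of 77 nuclear genes of oxidative phosphorylation. Cytoplasmic ribosomal protein genes had a median log2 fold change of -0.19, High over Low, with 1 of 86 higher (Rpl10l, 0.68) and 0 lower. With the replicate block 2 were higher and 4 lower, and without Low replicate 1 the count was 1 higher and 46 lower, beside 43.3% of all genes. The 77 nuclear oxidative phosphorylation genes had a median of -0.08 with 0 in either direction (limma; 2 at an unadjusted p under 0.05). With the block 1 of them was higher and 3 lower, and without Low replicate 1 there were 1 higher and 19 lower. The 15 transcripts of the mitochondrial genome, which the mitoribosome translates or contains, had a median of -0.13, again with 0 calls and 0 at an unadjusted p under 0.05.

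The mitochondrial transcripts shared the order of the members in Low but not in Medium or High. Their summed signal was 27156, 35260 and 29785 in Low, 33171, 24408 and 24565 in Medium and 35302, 25237 and 23770 in High. In Low replicate 2 was above 3 and 3 above 1, whereas replicate 1 was the highest library in Medium and in High, where the members' summed signal was lowest.

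**Figure D5:**
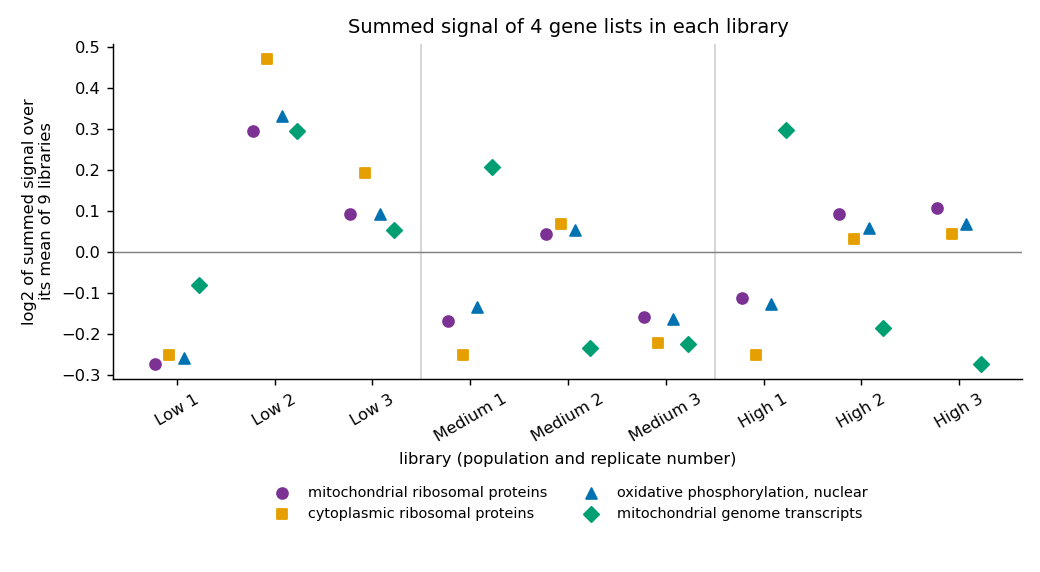
Log2 of the summed signal of 4 gene lists in each library, relative to the list's mean over the 9 libraries. Mitoribosomal, cytoplasmic ribosomal and nuclear oxidative phosphorylation genes move together, lowest or low in replicate 1 of each population and highest in Low replicate 2, while mitochondrial genome transcripts are highest in replicate 1 of Medium and High.

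Genes that build, regulate or assist the mitoribosome were called in High against Low in some cases, beside the 28.4% of all genes. Of 6 measured mitoribosomal proteins with other names, such as Dap3, none passed (limma; 0 at an unadjusted p under 0.05). Of 28 genes for mitoribosome assembly and rRNA modification, 3 were higher in High and 1 was lower, with a median log2 fold change of 0.12. Rbfa, a factor that binds the small subunit during its maturation, had 60.9, 77.3 and 72.2 in High, against 32.2, 47.8 and 41.0 in Low (log2 fold change of 0.79 ± 0.144 SE, limma adjusted p = 0.00326). Its High libraries all lay above the Low libraries, although it too was lowest in replicate 1 of each.

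The RNA helicase gene Dhx30, needed for large-subunit assembly, had 163, 164 and 163 in High, against 141, 101 and 117 in Low (0.46, limma adjusted p = 0.0125). Afg3l2 encodes part of the protease that matures the Mrpl32 protein, and had 108, 107 and 98.4 in High, against 85.6, 75.0 and 83.6 in Low (0.36, limma adjusted p = 0.00821). In both genes High and Low did not overlap, and among the Low libraries replicate 1 was the highest, unlike in the members. Tfb1m, a methyltransferase of the small-subunit rRNA, was lower, at 18.0, 21.4 and 16.7 in High against 21.6, 27.6 and 26.0 in Low (-0.40, limma adjusted p = 0.033).

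Of 20 translation factors and activators, 1 was higher and 1 lower in High (median log2 fold change 0.09); with the replicate block these were 3 and 2. Tufm, the mitochondrial elongation factor Tu, averaged 204 ± 6.26 in High and 148 ± 14.6 in Low (SD, n = 3 each; 0.46, limma adjusted p = 0.00295). The release factor gene Mtrf1l averaged 4.71 ± 0.113 in High and 6.65 ± 0.482 in Low (-0.41, limma adjusted p = 0.0285). Of 17 mitochondrial aminoacyl-tRNA synthetases, 2 were higher and 0 lower (median -0.02). These were Aars2 (57.4 ± 0.964 in High and 39.2 ± 5.28 in Low) and Tars2 (90.2 ± 1.67 in High and 73.5 ± 1.49 in Low).

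Among 17 genes for mitochondrial DNA, its transcription and nuclear regulators of mitochondrial genes, 3 were higher in High and 1 lower (median log2 fold change 0.13). These calls were 23.53% of the list, beside 28.4% of all genes, and with the replicate block 29.41% beside 38.8%. Without Low replicate 1, 5 were higher and 3 lower, or 47.06% of the list beside 43.3% of all genes. Without Low replicate 2 the share was 23.53% beside 22.6%, and without Low replicate 3 it was 17.65% beside 17.4%. Ppargc1b and Pprc1 are coactivators of the PGC-1 family. Ppargc1b had the largest of the called changes in these lists, at 7.34 ± 0.954 in High and 2.28 ± 0.614 in Low (SD, n = 3 each; log2 fold change of 1.36, limma adjusted p = 0.000323). Pprc1 averaged 321 ± 19.6 in High and 210 ± 53.9 in Low (0.64, limma adjusted p = 0.0142). Polrmt, the mitochondrial RNA polymerase, averaged 68.2 ± 1.72 in High and 51.6 ± 5.38 in Low (0.40, limma adjusted p = 0.00798). Gabpb1, a subunit of the ETS-family factor GABP, was lower, at 36.5 ± 1.6 in High and 48.0 ± 0.964 in Low (-0.39, limma adjusted p = 0.00419).

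Over all of these lists, Rpl10l included, 13 genes passed for High against Low, 10 higher and 3 lower, beside 28.4% of all genes. The list sizes are those given above. With the replicate block 27 did, 16 higher and 11 lower, beside 38.8% of all genes. Without Low replicate 1, 92 did, 17 higher and 75 lower, beside 43.3%. Without Low replicate 2 there were 14, beside 22.6%, and without Low replicate 3 there were 10, beside 17.4% (limma). In Medium against Low, Ppargc1b (log2 fold change of 1.17), Aars2 (0.44), Afg3l2 (0.30) and Taco1 (0.48), a translational activator, were higher in Medium, and Mtrf1l (-0.44) was lower. Over all genes 12.0% passed in Medium against Low. In High against Medium 0 genes of these lists passed, beside 0.407% of all genes.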

How the data were processed

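RNA libraries were single-end, per the labels' protocols. Per the submitters' processing notes, RSEM 1.17, limma, Picard and cutadapt were used; no source used here gives the build, annotation or strand setting. A normalised signal per gene and library was deposited. Each value was a whole multiple of 1 read's worth (100% within 0.001 read), which gave the recovered reads. Column totals were 953055 to 1026948.

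From these values, log2(signal + 1 CPM on the library's own total) was fitted with limma 3.58.1 (R 4.3.3, variance trend, all 9 libraries, population as the only term). The filter of 1 CPM in 3 libraries kept all 13499 genes, adjusted together by Benjamini-Hochberg, threshold 0.05. Fold changes on this scale understate changes of low genes. Positions and lengths came from GENCODE M21 (GRCm38; 13412 genes, 99.36%; Mrpl33 unmatched), promoters from RefSeq. Exons of 27 members overlap a gene on the opposite strand and those of 7 a gene on the same strand.

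Alternatives were edgeR 4.0.16 and DESeq2 1.42.0 on recovered reads, other scalings, filters and pseudocounts, sample weights, a loess length correction (span 0.5), a replicate block and left-out libraries. Deviations of same-numbered High and Low libraries correlated at 0.53, 0.26 and 0.18, above the preset 0.1, so block results are given where they change a call or move a count by over 1.5 times; Low replicate 2 with High replicate 3 gave 0.31. For other comparisons the rule was not met. Scripts were tested on simulated data. Members, lists and rules were chosen with earlier results of these data known. Named members are those past the threshold, the highest and lowest fold changes and levels per kilobase, the Mrps18 paralogs, Mrpl12, and calls that depend on Low replicate 1 or 2. Members named outside that rule (Mrpl39, Mrpl16, Mrpl22, Mrps2, Mrps5, Mrpl57, Mrps11, Mrpl46, Mrpl2, Mrpl20 and Mrpl9) were chosen after their values were seen.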

Additional observations from a re-analysis of the deposited data

How the results depend on the processing

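For High against Low, the 2 members called became 1 with a filter of 5 CPM, with no variance trend and without Low replicates 1 and 2 together. They became 0 with quantile normalization or with only the 2 populations compared, and 15 with sample weights, 5 with the replicate block, 8 with the transcript length correction and 12 with both. Leaving out 1 library gave 0 to 13. The length correction fitted without Low replicate 1, or 2, chosen after seeing the data, gave 17 and 8. For Medium against Low, the count of 0 became 38 with sample weights, 3 with the replicate block, 5 with block and length correction, 1 with edgeR or DESeq2, 2 without Low replicates 1 and 2 together, 21 with the length correction fitted without Low replicate 1, and 0 to 31 with 1 library left out. For High against Medium it was 0 under every alternative run. The sample weights gave Low replicate 3 a weight of 6.6 and Low replicate 1 one of 0.22.

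Over all genes, High against Low gave 3832 calls, 7850 with sample weights, 5958 with block and length correction, 6087 with the length correction fitted without Low replicate 1, and 2345 to 5846 with 1 library left out. High against Medium gave 55, and 84 with no variance trend, 801 with sample weights, 170 with only the 2 populations compared, 203 with the replicate block, 309 with the length correction, 491 with both, 260 with DESeq2, 179 without Low replicates 1 and 2 together, 458 and 358 with the length correction fitted without Low replicate 1 and 2, and 11 to 206 with 1 library left out. Medium against Low gave 1621, and 7044, 656, 3656, 2700 and 3793 with sample weights, only the 2 populations compared, the block, the length correction and both, 4448 with the length correction fitted without Low replicate 1, and 527 to 5123 with 1 library left out. The 13 calls in the pathway lists became 27 with the block, 30 with the length correction, 51 with both, and 10 to 92 without 1 Low library. The shares of all genes were 28.4%, 38.8%, 37.9% and 44.42% in that order, and 17.4% to 43.3% without 1 Low library.

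Of the named members' alternative values, 15 reversed. For High against Medium, Mrpl3, Mrps23 and Mrpl49 turned to 0.05, 0.06 and 0.02 with sample weights, and ran from -0.09 to 0.03, -0.1 to 0.08 and -0.04 to 0.04 with 1 library left out. For Medium against Low, Mrpl19 ran from -0.01 to 0.17 with 1 library left out. For High against Low, Mrps18a ran from -0.32 to 0.08 with 1 library left out, and Mrps18b turned to -0.07 with quantile normalization, -0.03 without Low replicates 1 and 2 together and -0.17 without Low replicate 1 (0.22 without Low replicate 2). None of these values passed the threshold. The members' median for High against Low ran from -0.17 to 0.12 and changed sign between alternatives, and that for Medium against Low ran from -0.31 to 0.03; that for High against Medium stayed between 0.08 and 0.2. The SD of the median between libraries was 0.19. The causes were not tested. The fewest reads behind a member's value were 148, and the members' median SD within Low was 0.314 on the log2 scale.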
